A study of Mus musculus with 24 samples.

Results

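A set of 10 temperature-responsive genes was followed in brain punches of wild-type and Vdr-/- mice: 2 cold-inducible RNA-binding protein genes, Rbm3 and Cirbp, and 8 heat-shock genes, Hspa1a, Hspa1b, Hspa8, Dnajb1, Hsph1, Hsp90aa1, Hspd1 and Hspe1. The members were the rows carrying those symbols, 10 of 30270 gene identifiers. All 10 passed the filter on low values in each comparison. The mRNA of 24 libraries was sequenced, 12 from bilateral punches of the nucleus accumbens (NAc) and 12 from the ventral tegmental area (VTA) of the same 12 mice. Wild-type (Vdr+/+) and Vdr-/- (KO) mice received PBS or 5 mg/kg morphine sulfate intraperitoneally and were studied 90 min later, with 3 mice in each combination of genotype and injection. Wild-type mice given PBS are numbered 1, 2 and 3, those given morphine 1.0, 1.1 and 1.2, KO mice given PBS 7, 8 and 9, and KO mice given morphine 2.0, 2.1 and 2.2. The KO mice lack the vitamin D receptor from conception and in every tissue, and the study's methods describe a calcium-enriched diet for them. Age and sex are not given in the labels. Where nothing says otherwise, each library is taken as 1 mouse, and p-values measure the spread between these mice.

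The heat-shock response raises chaperones when proteins unfold. Heat-shock factor binds repeats of the unit nGAAn upstream of genes such as Hspa1a and Hspa1b, whose HSP70 proteins bind exposed stretches of unfolded proteins. DNAJB1 is a cochaperone that brings clients to HSP70 and triggers its ATP hydrolysis, HSPH1 is an HSP110 that exchanges the nucleotide of HSP70, HSPA8 is the constitutive HSP70, and HSP90AA1 is the stress-inducible cytosolic HSP90. HSPD1 and HSPE1 form the mitochondrial HSP60 and HSP10 folding chamber. RBM3 and CIRBP bind RNA, and their mRNAs rise with mild cooling and fall with warming, the opposite of the heat-shock genes. RBM3 is known for its part in synapse maintenance in the cooled brain.

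Promoter sequences are shown for 4 heat-shock genes that hold an exact pair of heat-shock units. Among these 4, Hspe1 was called in no morphine comparison. Sequences are also shown for Dnajb1 and Cirbp, which were called after morphine in KO mice and hold no exact pair. They are RefSeq promoters on GRCm38.p6 from 250 bases before to 50 after a gene's start, written 5′ to 3′ along the gene's strand, with capitals marking GAANNTTC or TTCNNGAA, 2 adjoining units that read the same on both strands. An entry was found for 7 of the 10 genes and not for Rbm3, Hspa8 and Hsp90aa1.
Hspa1a, chr17:34972107-34972406, minus strand: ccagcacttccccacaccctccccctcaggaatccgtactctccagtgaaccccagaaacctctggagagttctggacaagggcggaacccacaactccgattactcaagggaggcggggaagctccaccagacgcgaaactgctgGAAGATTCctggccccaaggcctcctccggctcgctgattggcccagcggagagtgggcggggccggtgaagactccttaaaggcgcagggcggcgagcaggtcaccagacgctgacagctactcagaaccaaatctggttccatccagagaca
Hspa1b, chr17:34959189-34959488, minus strand: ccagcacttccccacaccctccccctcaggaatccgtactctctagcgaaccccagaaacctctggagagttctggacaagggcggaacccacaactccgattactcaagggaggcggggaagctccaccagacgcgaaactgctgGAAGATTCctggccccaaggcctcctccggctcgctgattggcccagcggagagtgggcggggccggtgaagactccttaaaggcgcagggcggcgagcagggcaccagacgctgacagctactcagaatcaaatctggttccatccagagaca
Hsph1, chr5:149636287-149636586, minus strand: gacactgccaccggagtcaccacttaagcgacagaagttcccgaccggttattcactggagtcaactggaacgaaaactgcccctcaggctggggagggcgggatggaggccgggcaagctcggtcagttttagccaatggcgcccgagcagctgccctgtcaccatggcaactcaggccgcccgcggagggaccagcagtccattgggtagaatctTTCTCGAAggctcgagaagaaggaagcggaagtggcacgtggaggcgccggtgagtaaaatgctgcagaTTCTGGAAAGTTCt
Hspe1, chr1:55087898-55088197, plus strand: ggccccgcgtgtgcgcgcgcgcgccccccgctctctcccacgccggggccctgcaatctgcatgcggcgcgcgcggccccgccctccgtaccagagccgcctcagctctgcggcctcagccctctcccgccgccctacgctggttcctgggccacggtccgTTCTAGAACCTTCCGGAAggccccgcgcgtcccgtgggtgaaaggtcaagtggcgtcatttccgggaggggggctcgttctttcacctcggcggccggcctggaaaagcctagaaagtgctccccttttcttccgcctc
Cirbp, chr10:80167589-80167888, plus strand: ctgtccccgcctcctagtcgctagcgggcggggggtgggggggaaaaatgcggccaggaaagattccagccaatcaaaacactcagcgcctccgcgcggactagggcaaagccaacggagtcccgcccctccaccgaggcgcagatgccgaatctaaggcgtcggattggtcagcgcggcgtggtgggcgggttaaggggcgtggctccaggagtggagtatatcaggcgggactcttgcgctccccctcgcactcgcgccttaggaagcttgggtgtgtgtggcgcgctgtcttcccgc
Dnajb1, chr8:83607925-83608224, plus strand: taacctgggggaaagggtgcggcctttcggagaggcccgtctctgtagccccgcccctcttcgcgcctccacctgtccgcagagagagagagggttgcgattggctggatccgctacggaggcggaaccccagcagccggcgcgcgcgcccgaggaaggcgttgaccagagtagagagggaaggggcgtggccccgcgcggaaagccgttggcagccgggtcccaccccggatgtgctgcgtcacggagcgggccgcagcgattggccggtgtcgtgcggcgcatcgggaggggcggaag
The motif was present in 4946 of 32851 promoters of this length (15.1%). Hspa1a and Hspa1b each held 1, starting 104 bases before the start site, and their promoters shared 296 of 300 bases. Hsph1 held 3 overlapping or neighbouring matches. Hspe1 also held 3, and it faces Hspd1 across the same stretch of chromosome 1, so that 1 of 2 Hspd1 start sites holds the same matches. A chain of 3 such units, each turned against the one before, was found for Hsph1, Hspd1 and Hspe1 and in 198 of all promoters (0.603%). These letters were not in the windows of either Dnajb1 start or of either Cirbp start. Only exact letters were searched for, so imperfect units were not counted. A match is a description of the sequence and not a site shown to be bound.

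The members lie apart in the genome (GRCm38, GENCODE M21), except for the neighbouring pairs. Hspa1a (chr17:34969190-34972156) and Hspa1b (chr17:34956436-34959238) lie side by side on the minus strand. Hspd1 (chr1:55077835-55088243, minus strand) and Hspe1 (chr1:55088132-55091307, plus strand) overlap at their 5′ ends, and the sources used here do not give the strand setting of the counting. Hspa1a and Hspa1b are near-identical: of the 101-base words in their longest transcripts, the length of a read, 48.4% of those of Hspa1a and 49.7% of those of Hspa1b also occurred in other genes' transcripts, mostly in each other. Whether reads on shared words were left out of the counts or assigned to the wrong gene was not tested. The level of each gene of this pair is therefore uncertain. The share was 47.3% for Hsp90aa1, 31.3% for Hspa8 and 26.7% for Hspd1, mostly with pseudogene transcripts, and 8.43% for Rbm3, while Cirbp, Dnajb1 and Hsph1 shared none.

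Each library held 9328726 to 30184426 reads on genes. Reads of Vdr numbered 0 to 17 in KO and 1 to 17 in wild-type libraries (medians 6.0 and 5.5), which does not separate the genotypes. The 10 nucleus accumbens markers summed to 2487 to 5044 CPM (reads relative to all reads on genes in the library) in NAc libraries and 262 to 325 in VTA libraries. The 10 dopamine neuron markers summed to 49.7 to 92.2 CPM in the NAc and 202 to 3131 in the VTA, with 202 to 606 in wild-type mice given morphine against 2483 to 3131 in wild-type mice given PBS. Within the KO PBS group of the VTA alone, the sum was 557 to 2397 CPM. In bulk punches, fewer cells of a type, less RNA per cell and another placement of the punch cannot be told apart. One library stood apart: in NAc wild-type PBS mouse 2, the ratio to the other NAc libraries fell with exon length across 12714 genes (Spearman's rho -0.43, a description). The same rho was 0.02 to 0.21 in the 6 NAc morphine libraries and -0.43 to 0.05 in the 6 NAc PBS libraries, and in the VTA it was 0.06 to 0.18 with morphine and -0.24 to -0.04 with PBS. Library composition by length thus separated the injections in the VTA, where KO PBS mouse 7 was lowest (-0.24). In the NAc the ranges overlapped over both genotypes together. Within KO mice of the NAc they did not overlap, at 0.02 to 0.21 with morphine and -0.13 to 0.00021 with PBS. The part of this composition in the results was not tested.

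Per kilobase of exon, Hspa8 was the most abundant member in both regions, at a median of 282 CPM per kilobase in the NAc and 331 in the VTA, followed by Hsp90aa1 at 168 and 227. Hsph1 (44.9 in the NAc, 40.7 in the VTA) and Hspd1 (44.8 and 52.5) came next. Hspe1, Cirbp, Dnajb1 and Rbm3 lay between 10.3 and 17.9 in both regions. The inducible pair was rarest, with Hspa1a at 1.02 and 1.59 and Hspa1b at 1.02 and 0.966. Exon lengths were not corrected for words shared with other genes, so levels are not strictly comparable between members. In reads, Hspa1b held 16 to 184 and Hspa1a 25 to 205 per library, so that counting error is large for these 2 genes and small for Hspa8, which held 11436 to 39340.

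**Figure D1:**
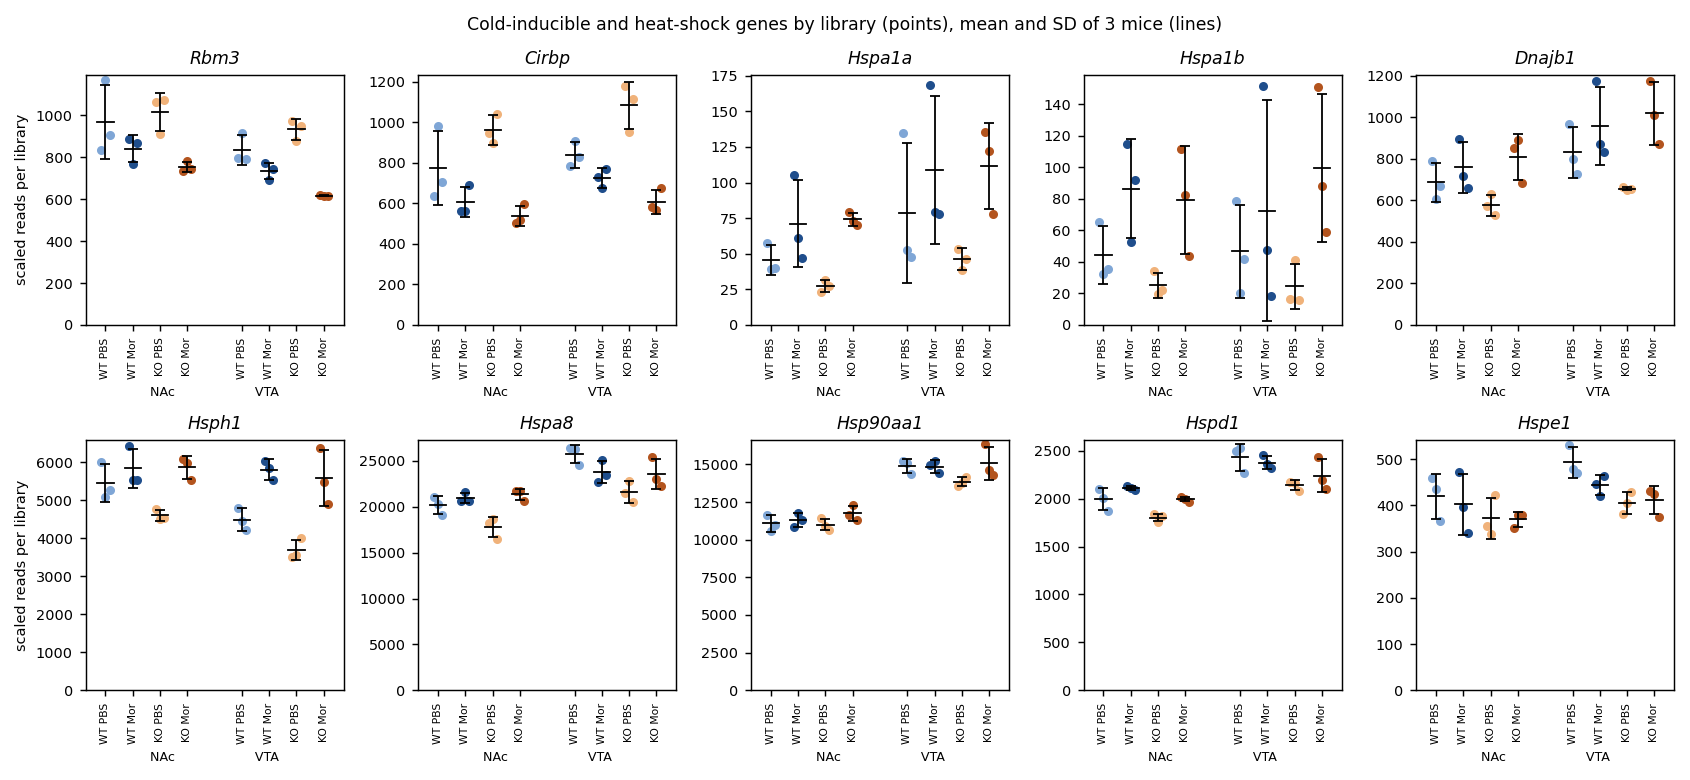
Scaled reads (vertical axis, reads divided by size factors over all 24 libraries) of each member in each library (points), by region, genotype and injection, with the mean and SD of 3 mice (lines). Rbm3 and Cirbp are lower and Hspa1a, Hspa1b, Dnajb1 and Hsph1 are higher in all KO morphine libraries than in KO PBS libraries of the same region.

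The first question was how these genes differed in the NAc between KO mice given morphine and KO mice given PBS. The labels number PBS and morphine mice in separate series, so anything else that went with a series cannot be told apart from the injection. Both cold-inducible genes fell and 6 of 8 heat-shock genes rose, with adjusted p under 0.05 (limma across all genes, Benjamini-Hochberg). That is 8 of 10 members, where 19.1% of all 15820 genes tested were called in this comparison, 9.94% higher and 9.13% lower with morphine. The members, and the lists of related genes below, were chosen with earlier results of these data known. Their counts beside such shares, here and below, are therefore descriptions and no test of the set. Counts of members at an unadjusted p, and calls by other fits, are given below without a share of all genes. They are descriptions as well. Values here are the deposited normalized counts of the table for this comparison. Cirbp was at 866, 819 and 956 in the 3 PBS mice and at 463, 475 and 547 in the 3 morphine mice. The 2 sets of values did not overlap, with each morphine mouse below each PBS mouse, as 19.4% of all genes were. Cirbp thus fell by 0.83 on the log2 scale (SE 0.08, adjusted p = 0.00013, limma). Rbm3 was at 975, 831 and 985 with PBS and 677, 716 and 685 with morphine. It fell by 0.42 (SE 0.07, adjusted p = 0.0022, limma), again with no overlap.

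Among the heat-shock genes, the inducible HSP70 pair changed most in the same NAc samples. Hspa1a was at 21.2, 29.0 and 25.3 with PBS and at 72.9, 66.7 and 64.8 with morphine, a 2.66-fold rise (log2 1.41, SE 0.19, adjusted p = 0.00063, limma). Hspa1b was at 31.4, 17.8 and 20.3 with PBS and at 103, 75.3 and 39.9 with morphine, 2.92-fold (log2 1.55, SE 0.32, adjusted p = 0.0070, limma). The morphine values of Hspa1b spread widely, with the lowest still above each PBS value. Dnajb1, their cochaperone, rose from 528 ± 44.9 to 742 ± 102 (SD, n = 3 each, log2 0.48, SE 0.10). Hsph1, the nucleotide exchange factor, rose from 4214 ± 130 to 5387 ± 275 (SD, n = 3 each, log2 0.35, SE 0.05). Hspa8, already abundant, rose from 16313 ± 992 to 19623 ± 540 (SD, n = 3 each), 1.20-fold. None of these 5 genes overlapped between the injections, where 18.5% of all genes had each morphine mouse above each PBS mouse. In the mitochondria, Hspd1 rose 1.11-fold (1651 ± 40.7 to 1832 ± 21.7, SD, n = 3 each, adjusted p = 0.039, limma), and it lost the call with DESeq2 (adjusted p = 0.10) and without any 1 of the 6 mice. Its partner Hspe1 was at 341 ± 40.8 with PBS and 340.2 ± 14.5 with morphine (SD, n = 3 each, log2 0.0042, SE 0.09). Hsp90aa1 was at 10078 ± 361 with PBS and 10787 ± 441 with morphine (SD, n = 3 each, log2 0.10, SE 0.05, adjusted p = 0.21, limma).

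Leaving out any 1 of the 6 mice left 6 to 7 members called in that comparison. An exact permutation test of 3 against 3 mice, two-sided, cannot give a p below 0.1, and each of the 8 called members gave that value. The 10 NAc markers moved with the result: all 10 fell with morphine, and their summed level was 3808 to 4410 CPM in KO PBS and 2487 to 2849 in KO morphine libraries. Their part in the change of the members was not tested. Exons sum to 2604 bases in Cirbp and 4698 in Rbm3, against 2642 to 7266 in the 6 genes that rose.

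**Figure D2:**
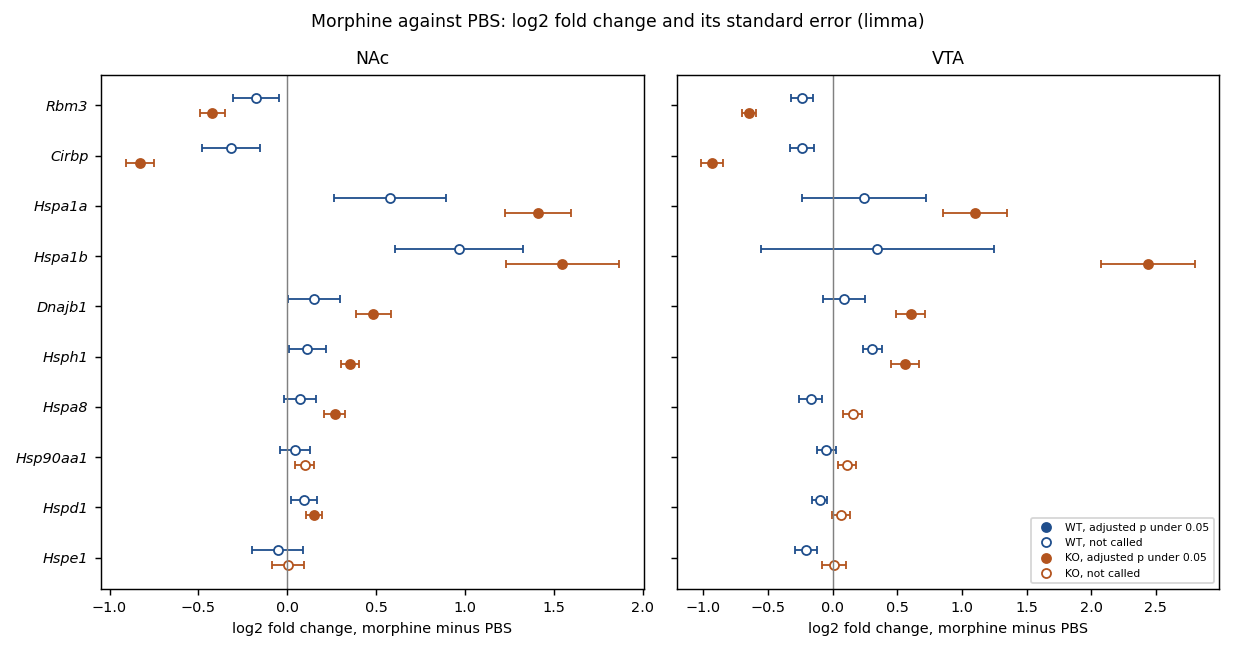
Log2 fold change of morphine over PBS (horizontal axis, limma) with its standard error (bars) for the 10 members in wild-type (WT) and KO mice, NAc at the left and VTA at the right. Filled points passed an adjusted p of 0.05: 8 members in the NAc and 6 in the VTA of KO mice, and 0 in wild-type mice of either region.

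In the VTA of KO mice, the same comparison used 2 PBS mice, 7 and 9, since the deposited table holds 5 libraries. The test called 6 of 10 members, where 10% of all 16364 genes were called (4.74% higher, 5.28% lower): Rbm3 and Cirbp fell, and Hspa1a, Hspa1b, Dnajb1 and Hsph1 rose. Rbm3 was at 1113 and 1085 with PBS and at 706, 699.7 and 697 with morphine, and it fell by 0.65 on the log2 scale (SE 0.05, adjusted p = 0.0046, limma). The 3 morphine mice were closely alike. Neither cold-inducible gene overlapped between the injections, where 24.7% of all genes had each morphine mouse below each PBS mouse. Cirbp was at 1351 and 1278 with PBS and at 661, 642 and 767 with morphine, and it fell by 0.93 (SE 0.09, adjusted p = 0.0060, limma). Hspa1b was at 18.7 and 18.4 with PBS and at 171, 100.3 and 67.0 with morphine, which was 5.42-fold (log2 2.44, SE 0.36, adjusted p = 0.013, limma). In the table of both genotypes given PBS, mouse 8 was at 49.9 for Hspa1b, against 20.0 and 19.7 in mice 7 and 9.

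Hspa1a in these VTA samples was at 61.3 and 53.3 with PBS and at 154, 139 and 88.4 with morphine, 2.14-fold (log2 1.10, SE 0.24, adjusted p = 0.036, limma). Dnajb1 rose by 0.60 (SE 0.11) and Hsph1 by 0.56 (SE 0.11) on the log2 scale. KO morphine mouse 2.0 was the highest and 2.2 the lowest of the 3 morphine mice for all 4 of the genes that rose. With Hspa8 and Hsp90aa1, 6 members had each morphine mouse above each PBS mouse, as had 23.7% of all genes. Hspa8 (log2 0.15, SE 0.07), Hsp90aa1 (0.11, SE 0.07), Hspd1 (0.06, SE 0.07) and Hspe1 (0.01, SE 0.09) did not pass the test. With all 3 PBS mice, on reads recovered from the tables (an alternative chosen after the data had been seen), 6 members were again called, with Cirbp at -0.83, Rbm3 at -0.60 and Hspa1b at 2.01. The calls rested on few controls: without PBS mouse 7, 0 members were called, without PBS mouse 9, 2, and without morphine mouse 2.1, 3. With 1 PBS mouse left, that mouse was assumed to vary like the morphine group. The log2 changes of the 6 genes kept their sign in each of these. Of 10 oligodendrocyte markers, 8 fell with morphine in these samples, and their summed level was 12388 to 12786 CPM in KO PBS and 8388 to 9269.7 in KO morphine libraries. The part of that shift in the results was not tested.

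In wild-type mice, no member was called after morphine in either region. In the NAc, 0.813% of all genes were called, 0 members by limma, DESeq2 or edgeR, and 1 member had an unadjusted p under 0.05. Hspa1b was at 59.0, 28.5 and 31.7 with PBS and at 104, 48.1 and 83.2 with morphine (log2 0.97, SE 0.36, adjusted p = 0.25, limma). Hspa1a was at 52.3, 35.0 and 36.2 with PBS and at 95.7, 55.5 and 42.3 with morphine (log2 0.58, SE 0.32). Cirbp was at 573, 872 and 635 with PBS and at 510.5, 513 and 626 with morphine (log2 -0.32, SE 0.16, adjusted p = 0.38, limma). Rbm3 was at 753, 1038 and 815 with PBS and at 805, 696 and 787 with morphine (log2 -0.18, SE 0.13). All 10 members overlapped between the injections, while 12.3% of all genes lay wholly above and 13.2% wholly below the PBS mice. PBS mouse 1 was the highest control for the heat-shock genes, and PBS mouse 2, the library with the length trend, was the highest for Cirbp and Rbm3. Without PBS mouse 2, the values were -0.14 for Cirbp, -0.042 for Rbm3, 0.47 for Hspa1a and 0.77 for Hspa1b, and 0 members were called. All 10 NAc markers were again lower with morphine, 3 of them past the test.

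In the VTA of wild-type mice, again with 2 PBS mice, 3.65% of all genes were called (1.77% higher, 1.88% lower) and 0 members by limma or edgeR, with 3 at an unadjusted p under 0.05. Hsph1 was at 5371 and 4971 with PBS and at 6668, 6473 and 6048 with morphine (log2 0.31, SE 0.07, adjusted p = 0.072, limma). DESeq2 called this change (adjusted p = 0.015), as did limma with all 3 PBS mice (log2 0.36, adjusted p = 0.019) and limma without morphine mouse 1.1 (adjusted p = 0.036). Rbm3 was at 889 and 1018 with PBS and at 850, 764 and 812 with morphine (log2 -0.24, SE 0.09). Cirbp was at 877 and 1009 with PBS and at 804, 745 and 844 with morphine (log2 -0.24, SE 0.09, adjusted p = 0.18, limma). Both cold-inducible genes were thus lower in each morphine mouse than in each PBS mouse, without passing the test. In all 5 members, among them Hspa8, Hspd1 and Hspe1, lay wholly below the PBS mice, as did 23% of all genes, and 1, Hsph1, wholly above, as did 21.3%. Hspa1b was at 88.0 and 22.3 with PBS and at 167, 52.7 and 20.4 with morphine, so its values overlapped widely, and leaving out 1 mouse turned its sign (-0.62 to 1.31). Hspa8 was at 29574 and 29301 with PBS and at 25111, 27693 and 25773 with morphine (log2 -0.17, SE 0.09). The dopamine neuron markers differed strongly here (8 of 10 fell with morphine), and their part in these values was not tested.

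The morphine changes of the 2 genotypes were set against each other with a contrast of both tables. None of the 10 members passed in the NAc, where 0% of 15788 genes did, and none in the VTA, where 0.0553% of 16288 did. The limma fit gave 2 members with an unadjusted p under 0.05 in the NAc and 4 in the VTA. DESeq2 gave 0 called members in the NAc and 1 in the VTA. No share over all genes was set beside these counts, which are descriptions. The KO change minus the wild-type change was negative for Rbm3 and Cirbp and positive for all 8 heat-shock genes in both regions. The regions come from the same 12 mice, so they are not independent of each other. For Cirbp the difference was -0.51 (SE 0.20, adjusted p = 0.83, limma) in the NAc and -0.69 (SE 0.13, adjusted p = 0.11, limma) in the VTA. DESeq2 on all 12 VTA libraries called the VTA difference (-0.62, adjusted p = 0.027). For Rbm3 it was -0.24 (SE 0.16) in the NAc and -0.41 (SE 0.10, adjusted p = 0.16, limma) in the VTA. For Hspa1a it was 0.83 (SE 0.37) and 0.86 (SE 0.61), and for Hspa1b 0.58 (SE 0.55) and 2.09 (SE 1.11). A larger response in KO mice was therefore not shown for any single member by the main test. Marker genes differed in the same VTA contrast: all 10 dopamine neuron markers (median log2 difference 3.21) and all 10 microglia markers (0.40) were above 0, with 0 of either list called by limma. Their part in the differences of the members was not tested.

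The genotypes were also compared within each injection. The tables for PBS share their libraries with those for morphine against PBS, so the 2 kinds of comparison are not independent. In PBS mice, no member was called in the NAc (0.069% of all genes called, 0.0439% higher and 0.0251% lower in KO) or in the VTA (0.39%, 0.256% higher and 0.134% lower) by limma or edgeR. In the VTA, 7 members had an unadjusted p under 0.05, against 2 in the NAc. The share of all genes at that p was not counted, so these counts are descriptions. In the VTA with PBS, KO mice held Cirbp at 1447, 1163 and 1369 and wild-type mice at 963, 1109 and 1013 (log2 0.36, SE 0.09, adjusted p = 0.17, limma). All 8 heat-shock genes had lower means in KO mice there, and 6 of them did not overlap between the genotypes, where 10.7% of all genes did so in that direction. Cirbp did not overlap either, in the other direction, where 9.79% of all genes did so. Hspa8 was at 26407, 27837 and 25106 in KO and at 32486, 32204 and 30039 in wild-type mice (log2 -0.26, SE 0.06, adjusted p = 0.15, limma). Hsph1 was at 4302, 4331 and 4897 in KO and at 5900, 5464 and 5152 in wild-type mice (log2 -0.29, SE 0.07). DESeq2 called Cirbp (adjusted p = 0.019), Hspa8 (0.0047) and Hsph1 (0.020) in this table. Without KO mouse 8, limma called Cirbp and Hspa8. The shares of all genes called by DESeq2 and without mouse 8 are not given here. Cell type markers differed in the same VTA table, with all 10 dopamine neuron markers lower in KO mice (median log2 -1.12), all 10 microglia markers lower (-0.16) and 9 of 10 endothelial markers lower (-0.25), none of them called by limma. The dopamine neuron markers summed to 557 to 2397 CPM in KO and 2483 to 3131 in wild-type PBS libraries of the VTA. The part of these shifts in the values of the members was not tested.

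In the NAc of PBS mice, Hspa1a was at 23.2, 31.8 and 27.7 in KO and at 57.9, 38.6 and 40.2 in wild-type mice (log2 -0.69, SE 0.23, adjusted p = 0.48, limma). Hsph1 was at 4775, 4518 and 4541 in KO and at 6017, 4983 and 5266 in wild-type mice (log2 -0.23, SE 0.09). A group of 4 members, Hspa1a, Hspa8, Hsph1 and Hspd1, were lower in each KO mouse than in each wild-type mouse, where 9.68% of all genes were, and 0 members were higher in each KO mouse, where 7.26% were. Cirbp differed by 0.35 (SE 0.15), and by 0.52 (SE 0.08, adjusted p = 0.073, limma) without wild-type mouse 2. All 10 NAc markers (median log2 -0.22), all 10 oligodendrocyte markers (-0.31) and all 10 microglia markers (-0.14) were also lower in KO mice here, with 0 called by limma, and their part was not tested.

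After morphine, no member was called between the genotypes in the NAc (0.192% of all genes, 0.0703% higher and 0.121% lower in KO) or the VTA (0.0624%, 0.0374% higher and 0.025% lower) by limma, DESeq2 or edgeR, with 1 and 2 members at an unadjusted p under 0.05. Rbm3 in the VTA was at 618, 613 and 611 in KO and at 764, 688 and 733 in wild-type mice (log2 -0.24, SE 0.06, adjusted p = 0.42, limma), the 1 member without overlap, where 7.45% of all genes were lower and 7.07% higher in each KO mouse. In the NAc that member was Hspd1, lower in each KO mouse, where 7.39% of all genes were lower and 6.08% higher. Cirbp in the VTA was at 579, 563 and 672 in KO and at 722, 670.4 and 762 in wild-type mice (log2 -0.25, SE 0.09). Hspa1a in the NAc was at 65.9, 60.2 and 58.6 in KO and at 87.4, 50.9 and 38.7 in wild-type mice (log2 0.14, SE 0.25), with the KO values inside the wild-type range. Between the injections, the sign of the genotype difference turned for Rbm3 and Cirbp in both regions, from higher in KO with PBS to lower in KO with morphine, though for Rbm3 in the NAc with PBS the value was -0.0027 without wild-type mouse 1. The change of sign restates the contrast of the morphine changes above, since it uses the same libraries.

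**Figure D3:**
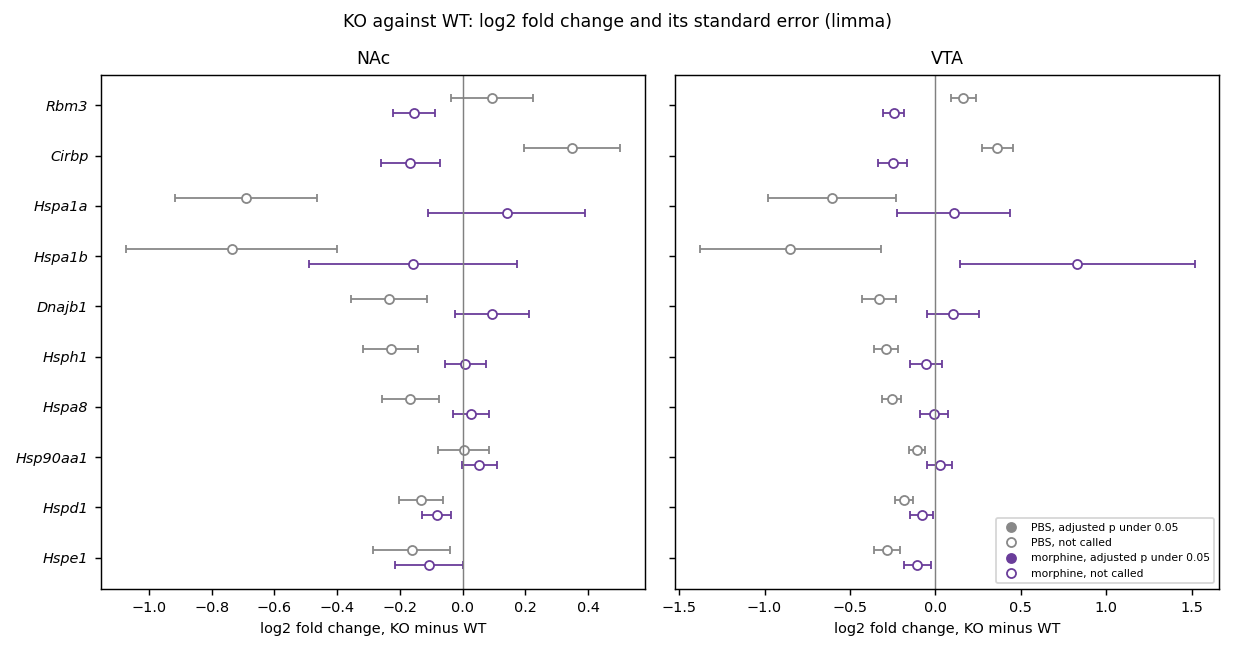
Log2 fold change of KO over wild-type mice (horizontal axis, limma) with its standard error (bars) for the 10 members, in PBS (grey) and morphine (purple) mice, NAc at the left and VTA at the right. All points are open, since 0 members passed an adjusted p of 0.05; with PBS the cold-inducible genes lie above 0, and the heat-shock genes lie below it except Hsp90aa1 in the NAc (log2 0.00).

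The heat-shock and cold-inducible genes were also set against each other library by library. This restates the comparisons above, since it uses the same members and libraries. For each library the mean log2 value of the 6 cytosolic heat-shock genes, without Hspd1 and Hspe1, and that of Rbm3 and Cirbp were taken. Values were on the scale of all 24 libraries, each gene centred on the mean of its region. Hspa1a and Hspa1b, which held few reads and changed most in KO mice, weigh most in the heat-shock mean. Across the 12 NAc libraries, Pearson's r between the 2 means was -0.86, and across the 12 VTA libraries it was -0.80, as a description that includes the group differences. Heat-shock minus cold-inducible was -0.93 to -0.62 in NAc KO PBS libraries and 0.29 to 0.77 in NAc KO morphine libraries. In the VTA it was -0.95 to -0.58 in KO PBS and 0.33 to 0.98 in KO morphine libraries. Wild-type values overlapped between the injections in both regions, at -0.66 to 0.28 with PBS and 0.15 to 0.63 with morphine in the NAc, and at -0.50 to 0.32 and -0.13 to 0.66 in the VTA. Wild-type PBS mouse 1 was the PBS mouse with a value above 0 in both regions, 0.28 in the NAc and 0.32 in the VTA.

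**Figure D4:**
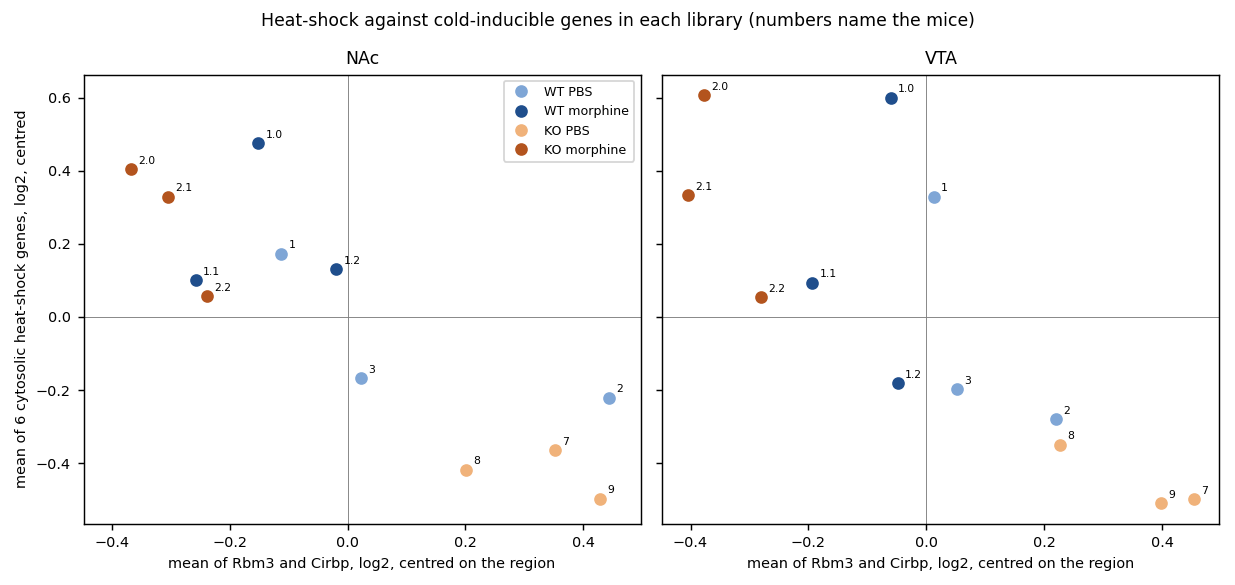
Mean log2 value of the 6 cytosolic heat-shock genes (vertical axis) against that of Rbm3 and Cirbp (horizontal axis), both centred on the region, for each library, with the mouse number beside each point. The KO PBS mice 7, 8 and 9 lie at the lower right and the KO morphine mice at the upper left in both regions.

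The 2 regions of a mouse were then compared. After the group means had been removed, r between the NAc and the VTA over 12 mice was above 0 for all 10 members. It was 0.94 for Rbm3 (Spearman's rho 0.90, exact permutation p = 0.019, adjusted p = 0.17, and r = 0.93 without the 2 mice farthest from the median). For Cirbp r was 0.72 (rho 0.65, exact permutation p = 0.0093, adjusted p = 0.13), for Hspa8 0.79 (rho 0.85, exact permutation p = 0.0062, adjusted p = 0.13) and for Dnajb1 0.81 (rho 0.85, exact permutation p = 0.035, adjusted p = 0.20). Hsp90aa1 gave 0.02 (rho -0.0070) and Hspe1 0.22 (rho 0.26). None of the 28 relations tested passed the correction, and permuting 3 mice within each of 4 groups allows 1296 arrangements. Within regions, Rbm3 went with Cirbp (r = 0.80 in the NAc, exact permutation p = 0.051, falling to 0.46 without the 2 farthest mice, and r = 0.69 in the VTA, exact permutation p = 0.033, with adjusted p of 0.24 and 0.20). Between Rbm3 and the 8 heat-shock genes, r ranged from -0.52 to 0.34 over both regions. An opposition of Rbm3 and heat-shock genes was thus not detectable between mice within groups.

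**Figure D5:**
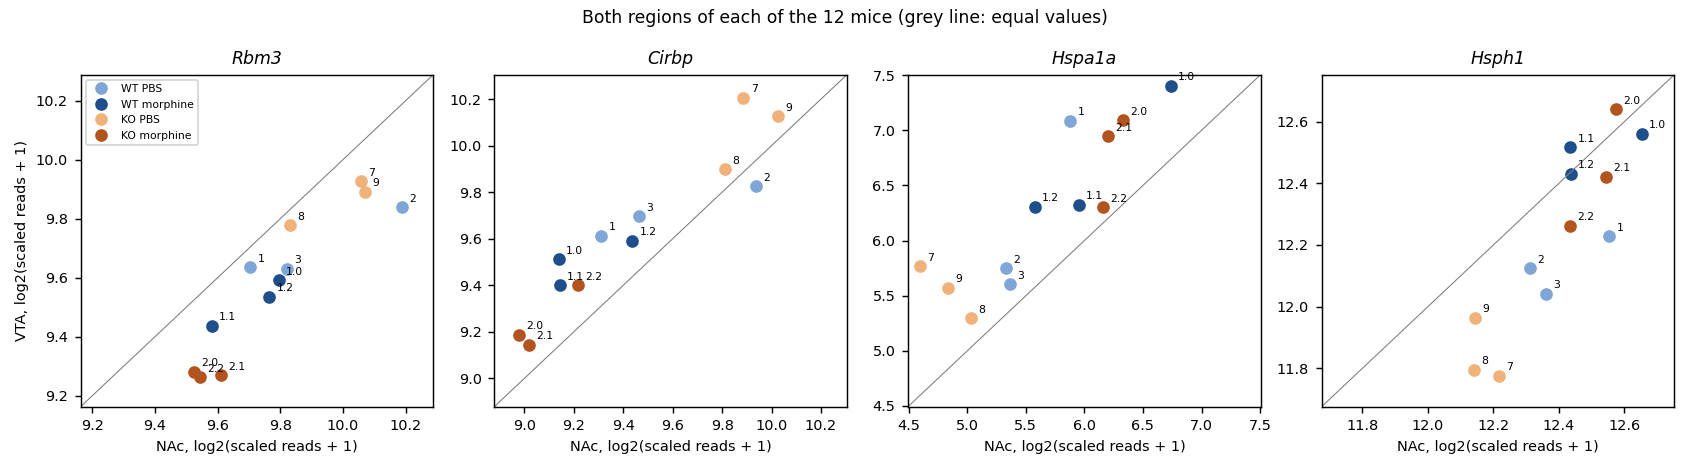
Log2(scaled reads + 1) in the VTA (vertical axis) against the NAc (horizontal axis) of the same mouse, for Rbm3, Cirbp, Hspa1a and Hsph1, with 1 point and its number for each of 12 mice and a grey line of equal values. Rbm3 lies below the line in all 12 mice and Hspa1a above it in all 12.

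The regions themselves differed in level, tested within mice with the mouse as a block. Rbm3 was higher in the NAc in each group, by 0.20 (SE 0.06, adjusted p = 0.011, limma) on the log2 scale in wild-type PBS, 0.19 in wild-type morphine, 0.12 in KO PBS (adjusted p = 0.11, limma) and 0.29 in KO morphine mice. Cirbp went the other way, at -0.14, -0.26, -0.17 and -0.17 in the same order, with wild-type morphine alone past the test (adjusted p = 0.019, limma). The test called 7 of 10 members in wild-type PBS mice, where 57.2% of all 16147 genes were called (27.1% higher, 30.2% lower in the NAc), 7 in wild-type morphine (45.5% of genes), 6 in KO PBS (55.2%) and 4 in KO morphine mice (43.5%). Shares of that size are near those of the members, so the counts are no result about them. Without the block, 4, 3, 4 and 3 members were called. In wild-type morphine mice, the count was 2 without mouse 1.0, 4 without 1.1 and 3 without 1.2.

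Of the heat-shock genes, Hsp90aa1 was lower in the NAc in each group, from -0.43 (SE 0.06, adjusted p = 0.00011, limma) in wild-type PBS to -0.33 in KO PBS mice. Scaled reads of Hsp90aa1 in wild-type PBS mice were 11079 ± 550.5 in the NAc and 14903 ± 462 in the VTA (SD, n = 3 each). Hspd1 (-0.28 to -0.17) and Dnajb1 (-0.33 to -0.19) were lower in the NAc and called in all 4 groups. Hspa8 (-0.35 to -0.14) and Hspa1a (-0.72 to -0.55) were lower in 4 and called in 3. Hsph1 was the heat-shock gene called higher in the NAc with PBS, by 0.28 (SE 0.07) in wild-type and 0.32 (SE 0.07) in KO mice, while Hspa1b, at 0.05 and 0.14, was not called. For Hsph1 the difference was 0.0050 and 0.08 (SE 0.07 each) with morphine. A change of the regional difference with morphine was called for 0 members in wild-type mice (6.69% of genes called, lowest adjusted p of a member 0.10, limma) and 0 in KO mice (0.545% of genes, lowest 0.26), by limma or edgeR, with 1 member in each genotype at an unadjusted p under 0.05.

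Other genes of the folding network were counted from lists. In the NAc of KO mice, 9.94% of all genes were called higher and 9.13% lower with morphine. Of 15 other cytosolic chaperones, 4 were called higher (median log2 change 0.05, against -0.006 over all genes). Among them were Dnajb5 (0.43, SE 0.09), Dnaja1 (0.30, SE 0.05) and Hspa4 (0.23, SE 0.05). Of 16 cochaperones, 7 rose and 1 fell (median 0.12). The largest changes were in Ahsa2 (0.71, SE 0.13), which resembles the HSP90 activator AHSA1, Chordc1 (0.50, SE 0.08) and Fkbp4 (0.36, SE 0.05), both HSP90 cochaperones. The small heat-shock protein Hspb1 rose by 1.00 (SE 0.23), 1 of 4 tested in its list. Of 7 TRiC chaperonin subunits, Cct4 rose (0.23, SE 0.05). No heat-shock factor gene of 4 was called. In the mitochondria, Lonp1, a matrix protease, fell by 0.20 on the log2 scale (SE 0.06), 1 of 8 in its list. A count of 1 of 7 or 1 of 8 is near the share over all genes and is no result about those lists. Of 11 CLK kinases and SR splicing factors, whose splicing is known to respond to temperature, 5 rose, with Clk1 at 0.31 (SE 0.06), Srsf6 at 0.25 and Srsf7 at 0.21.

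The VTA of KO mice gave counts that rest on 5 libraries, in the fit in which 0 of the 10 members stayed called without PBS mouse 7. Over all genes, 4.74% were called higher and 5.28% lower. Of 15 cytosolic chaperones, 5 rose (median 0.17, against -0.002 over all genes), with Dnajb5 at 0.31 (SE 0.06) and Dnaja1 at 0.28 (SE 0.07). Of 16 cochaperones, 4 rose (median 0.13), with Ahsa2 at 0.66 (SE 0.12), Chordc1 at 0.50 (SE 0.08) and Bag3, a partner of HSP70, at 0.41 (SE 0.09). Hspb1 rose by 1.01 (SE 0.20), Cct4 by 0.24 (SE 0.06) and 3 of 11 CLK and SR genes rose, led by Clk1 at 0.40 (SE 0.06). Trap1, the mitochondrial HSP90, fell by 0.23 on the log2 scale (SE 0.06). In wild-type mice, 0 genes of these 7 lists were called in the NAc and 1 in the VTA, Dnajb5 (0.42, SE 0.08, adjusted p = 0.039, limma). Between the genotypes, 0 genes of the lists were called with either injection in either region, nor in the contrast of the morphine changes.

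The genes most like 4 of the members over the 24 libraries, centred on each region, were read from 12883 genes. For Rbm3 the most similar gene was Cirbp (r = 0.92), followed by Slc35b2 (0.90), 9030407P20Rik (0.88), Atp5g2 (0.87) and Mdh2 (0.87). For Cirbp the list opened with Rbm3 (0.92), Armcx5 (0.92), Slc35b2 (0.90), Actg1 (0.89) and Fndc10 (0.89). For Hspa1b it was Irf9 (0.86), Dnajb1 (0.85), Serpinh1 (0.83), Alkbh5 (0.82) and Ccdc117 (0.82), with Hspa1a in rank 8 (0.80). For Hsph1 it was Stac3 (0.92), Pdia6 (0.90), Hsp90b1 (0.90), Ythdc1 (0.89) and Dnajb1 (0.89). At the other end, Cirbp was in rank 12878 for Hspa1b (r = -0.78) and in rank 12864 for Hsph1 (-0.83). These values share group differences and library composition among the libraries and are descriptions.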

How the data were processed

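RNA from bilateral NAc and VTA punches of 12 mice was sequenced with a directional kit. According to the methods and the submitters' processing notes (CASAVA 1.8), the authors trimmed adapters with Trimmomatic 0.36, mapped reads with STAR 2.4.2a to the GENCODE annotation of GRCm38, counted reads per gene with STAR and normalized with DESeq2. The deposited signal values are normalized counts, reads divided by a size factor, in 8 tables of 1 pair of groups each. All values were whole multiples of 1 read (tolerance 0.01, lowest share over 46 columns 100.0%), so reads were recovered, and the 22 libraries present in 2 tables gave the same reads. No column belonged to no sample. For morphine against PBS in the VTA, each table has 5 libraries, without wild-type PBS mouse 3 and KO PBS mouse 8, where 6 had been assumed.

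Genes with a mean of at least 10 were tested as log2(value + 1) with limma 3.58.1 (trend, two-sided, Benjamini-Hochberg over all genes, adjusted p under 0.05), so fold changes of low genes are understated. Each pair of groups was fitted on its own table, and the genotype difference of the morphine change on both tables of a region. Regions were compared on recovered reads scaled over all 24 libraries, with the mouse as a block: the labels give both punches of a mouse 1 number, and the deviations of the punches from their group means correlated at -0.067 to 0.17 over 12 mice. Alternatives were DESeq2 1.42.0, edgeR 4.0.16, all 12 libraries of a region, TMM, reads scaled by total, a pseudocount of 0.1, no filter, and each mouse left out. Fits were run in R 4.3.3, and summaries and figures were made in Python 3.11.15 with matplotlib 3.10.9, scipy 1.17.1, pandas 2.3.3 and numpy 2.4.6. The fits were tested on simulated data. Coordinates come from GENCODE M21, which held 30204 of 30270 identifiers.

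Named genes were the 10 members and, from 7 lists of related genes, the called genes with the 3 largest changes per list and comparison. Marker lists covered nucleus accumbens, VTA dopamine neurons, endothelial cells, oligodendrocytes, astrocytes, microglia, choroid plexus and blood. Members, lists and tests were chosen with earlier results of these data known. Depth was 9328726 to 30184426 reads on genes per library.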

Additional observations from a re-analysis of the deposited data

How the results depend on the processing

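Of 2028 values of single members and relations under an alternative, 1879 kept their direction and side of the threshold, 67 lost and 28 gained a call and 54 changed sign, and of 237 counts of called members 221 stayed within 1.5 times. Depth limits Hspa1a and Hspa1b most, and 2 PBS mice limit the VTA morphine comparisons. The cause of the changes below was not tested. Shares of all genes called under the alternatives are not given, so counts of called members there are descriptions. DESeq2 called 3 members between the genotypes in the VTA with PBS and 1 for the genotype difference of the morphine change in the VTA. After morphine in the wild-type VTA, 1 was called by DESeq2, with limma on 12 libraries and with limma on all 3 PBS mice, the last chosen after the data had been seen. On leaving out 1 mouse, limma called 0 to 2 members between the genotypes in the VTA with PBS, 0 to 1 for the genotype difference in the VTA, 0 to 1 after morphine in the wild-type VTA and 0 to 6 in the KO VTA.

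No replicate block left 4 members called between regions in wild-type PBS mice (7 with it) and 3 in wild-type morphine mice (7 with it, 2 to 7 on leaving out 1 mouse), 4 in KO PBS (6 with it) and 3 in KO morphine mice (4 with it). Morphine mice of both genotypes share the digit after the point. A replicate block on that digit gave 0 called members in both genotype comparisons after morphine, as without it. Same-numbered mice correlated at -0.058 to -0.026 in the NAc and -0.26 to -0.12 in the VTA. Both punches of a mouse gave -0.067 to 0.17 by the same measure. It therefore cannot decide whether mice with the same digit share more than a number.

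With TMM, Hspa8 was 0.0022 for KO against wild type in the VTA with morphine. Hspe1 after morphine was -0.0041 (DESeq2), -0.0014 (edgeR) and -0.0075 (TMM) in the KO NAc and -0.015 (TMM) in the KO VTA. Between regions, Hspa1b in wild-type PBS was -0.017 scaled by total and -0.068 with edgeR, and Hsph1 in wild-type morphine was -0.0048 with TMM and -0.030 scaled by total. With TMM, r of Rbm3 was -0.13 with Hspd1 in the NAc and 0.11 with Hspe1 in the VTA. On leaving out 1 mouse, KO against wild type in the NAc with PBS ranged from -0.0027 to 0.22 for Rbm3 and from -0.040 to 0.046 for Hsp90aa1. With morphine it ranged from -0.12 to 0.46 for Hspa1a, -0.47 to 0.21 for Hspa1b, -0.028 to 0.079 for Hsph1 and -0.22 to 0.013 for Hspe1 in the NAc, and in the VTA from -0.082 to 0.47 for Hspa1a, -0.062 to 0.033 for Hspa8, -0.0044 to 0.26 for Dnajb1, -0.15 to 0.033 for Hsph1 and -0.032 to 0.063 for Hsp90aa1. The morphine change of Hspe1 ranged from -0.17 to 0.063 in the wild-type NAc, -0.062 to 0.099 in the KO NAc and -0.076 to 0.094 in the KO VTA, and its genotype difference in the NAc from -0.059 to 0.18. In the wild-type VTA it ranged from -0.43 to 0.91 for Hspa1a, -0.62 to 1.31 for Hspa1b and -0.069 to 0.23 for Dnajb1. Between regions, Hspa1b ranged from -0.25 to 0.21 in wild-type PBS, -0.13 to 1.19 in wild-type morphine and -0.30 to 0.73 in KO PBS, and Hsph1 from -0.038 to 0.049 in wild-type morphine.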

Other observations

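Markers of other cells also differed between the injections. Over all genes, 9.94% were called higher and 9.13% lower with morphine in the KO NAc, and 4.74% and 5.28% in the KO VTA. In wild-type mice these shares were 0.413% and 0.4% in the NAc and 1.77% and 1.88% in the VTA. A count of 1 called marker in a list of KO mice is no result about that list. In the NAc of KO mice, 5 of 10 microglia markers fell with morphine, with a summed level of 333 to 355 CPM with PBS and 283 to 310.1 with morphine, 5 of 10 oligodendrocyte markers fell and 1 rose, and 4 of 10 astrocyte markers rose and 1 fell. Of 5 choroid plexus markers tested there, 2 rose (25.9 to 37.2 CPM with PBS, 45.4 to 57.1 with morphine), 6 of 10 endothelial markers were higher and 4 lower without a call by limma, and 1 of 3 blood markers fell. In the VTA of KO mice, 3 of 10 microglia markers, 2 of 10 astrocyte markers and 1 of 10 endothelial markers fell, 1 of 8 choroid plexus markers rose, and all 3 blood markers were lower without a call by limma. Such shifts were not particular to KO mice. In the VTA of wild-type mice, 8 of 10 dopamine neuron markers fell with morphine (median log2 change of the list -3.20), as did 6 of 10 microglia markers (-0.70), 2 of 10 astrocyte markers and 1 of 3 blood markers, 1 of 5 choroid plexus markers rose, and all 10 oligodendrocyte markers were lower without a call by limma (-0.80). In the NAc of wild-type mice, 1 of 10 microglia markers fell and all 10 were lower (-0.41), 1 of 10 astrocyte markers rose, and all 10 oligodendrocyte markers were lower without a call by limma (-0.27). Their part in the changes of the heat-shock and cold-inducible genes was not tested.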
